A study of Mus musculus with 12 samples.

Results

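The tripartite motif (TRIM) genes described here are the 58 mouse protein-coding genes, of 20409 genes in the screen tables, whose symbol is Trim followed by a number and at most a letter from a to d. The pattern matched 67 symbols, and 9 members (Trim2, Trim3, Trim8, Trim13, Trim25, Trim28, Trim32, Trim59 and Trim71) were left out by the rule. The rule uses symbols, and which members it left out was decided with earlier results of these screens known. In ORFtag screening, a retroviral cassette with a promoter, a resistance gene, a functional tag and a splice donor lands at random in the genome. The tag splices to the next exon downstream. Where the reading frames match, a protein tagged near its N terminus is made from the endogenous gene. Cells with changed GFP fluorescence are sorted, and the insertion sites are mapped by inverse PCR and sequencing.

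All 12 libraries came from mouse embryonic stem (mES) cells, in 6 groups of 2 replicates: sorted and unsorted cells of an activator, a repressor and a posttranscriptional gene regulation (PTGR) screen. In the activator screen the tag was TetR and the cells carried TetO sites in front of a silent minimal promoter, and cells that gained GFP were sorted. The repressor screen used the same TetR tag with an active promoter next to the TetO sites, and cells that lost GFP were sorted. In the PTGR screen the tag was lambda N, the reporter mRNA carried boxB sites, and cells that lost GFP were sorted repeatedly before the boxB sites were removed with Cre and cells whose GFP came back were kept. All cells, unsorted ones included, carried a reporter and a selected cassette, and each screen used its own reporter line, so that a line and its screen cannot be told apart. The activator and PTGR lines were derived from clones. The libraries hold genomic DNA, so the identity of the cells could not be checked from expressed markers.

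TRIM proteins are mostly RING-type ubiquitin ligases. Most carry a RING finger, 1 or more B-boxes and a coiled coil at the N-terminal side, and they differ in the C-terminal domain, which often binds the substrate or partner. PRY-SPRY proteins form the largest subgroup and include many regulators of antiviral signalling, whereas the members with a PHD finger and a bromodomain (Trim24, Trim33 and Trim66) read chromatin and act on transcription in the nucleus.

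An insertion was counted as 1 genomic position, in the sense orientation, at most 200 kb upstream of the exon to which it was assigned. Libraries held between 14705 and 22266 such insertions in the activator and repressor sorted cells, 60980 and 58560 in the PTGR sorted cells, and between 54088 and 233799 in the unsorted cells. The sum of the 6 unsorted libraries, 1022126 insertions, is called the background. Libraries of a screen shared some positions. Of the positions listed for a sorted library, between 4.96% and 19.5% were also listed in the unsorted library with the same replicate number, and the repressor sorted replicates shared 18.2% and 26.0% of their positions with each other. Values that rest on shared positions are therefore also given without them. Leaving them out of both arms drops background positions according to the sorted lists, which can itself raise the ratio of an enriched gene.

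The splice acceptors that carry most of the results are shown here, because they fix which part of the protein is joined to the tag. Each line gives the last 15 bases of the intron in lower case and the first 15 bases of the exon in capitals, read 5′ to 3′ along the gene from the RefSeq mouse genome, build GRCm38.p6.
Trim24 exon 2, chr6:37903518-37903547, plus strand: ttttgtctttcccagTTGGAGTCATTCGAT
Trim33 exon 2, chr3:103310294-103310323, plus strand: ttcttttttttaaagTTGGTGTAATACGGT
Trim66 exon 2, chr7:109486136-109486165, minus strand: gtctttctctgctagAGCTCATCTCCTGTC
Trim26 exon 2, chr17:36837450-36837479, plus strand: ttccttcctcctcagGTCCAACCCAGACTT
Trim26 exon 3, chr17:36850641-36850670, plus strand: tgctcttgatttcagGTCTAAGGAACAGAG
Trim38 exon 2, chr13:23775434-23775463, plus strand: atttctcttccctagCCTGATCCATGTCAC
The exon starts of the paralogs Trim24 and Trim33 were identical at 11 of the 15 bases shown. Splicing to exon 2 leaves out the first 364 of 3153 coding bases of Trim24, the first 568 of 3420 of Trim33 and the first 211 of 4032 of Trim66. At the acceptors of Trim26 and Trim38 shown above, the whole coding sequence follows.

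The cassette reached most of the family before any sorting. Of the 58 members, 51 (87.9%) had at least 1 background insertion and 41 had at least 3, and the median was 15 insertions. Over all 20409 genes, 89.5% had at least 1 and the median was also 15. Trim24, a coregulator of nuclear receptors, had the most with 428, followed by Trim33, which acts in TGF-beta signalling, with 268. Trim38, a PRY-SPRY regulator of innate immune signalling, had 149, and Trim29, which lacks a RING finger, had 100. The next were Trim7 with 89, Trim41 with 80, Trim16 with 77, Trim23 with 74, Trim40 with 68 and Trim63, the muscle atrophy ligase MuRF1, with 64.

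A set of 7 members had 0 background insertions: Trim10, Trim12c, Trim30b, Trim30c, Trim60, Trim61 and Trim68. Of these, Trim10 had 1 insertion in the activator sorted cells and Trim68 had 1 in the PTGR sorted cells, and the other 5 had 0 in all 12 libraries. A count of 0 of 1022126 allows up to 3 insertions. The 11 genes listed in mouse gene clusters had a median of 1 and a highest value of 24 in Trim43a and Trim43b. Similar copies can lose reads in mapping, and the part of this in the counts was not tested. The 27 other PRY-SPRY genes had a median of 17, the 4 genes with COS, FN3 and SPRY domains a median of 17 with Trim67 highest at 42, and the 3 muscle RING finger genes a median of 22. Genes that are alone with their domain were Trim23 with an ARF GTPase domain, Trim37 with a MATH domain (12 insertions), Trim45 with a filamin repeat (7) and Trim42 with a COS box and an FN3 domain (1).

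**Figure D1:**
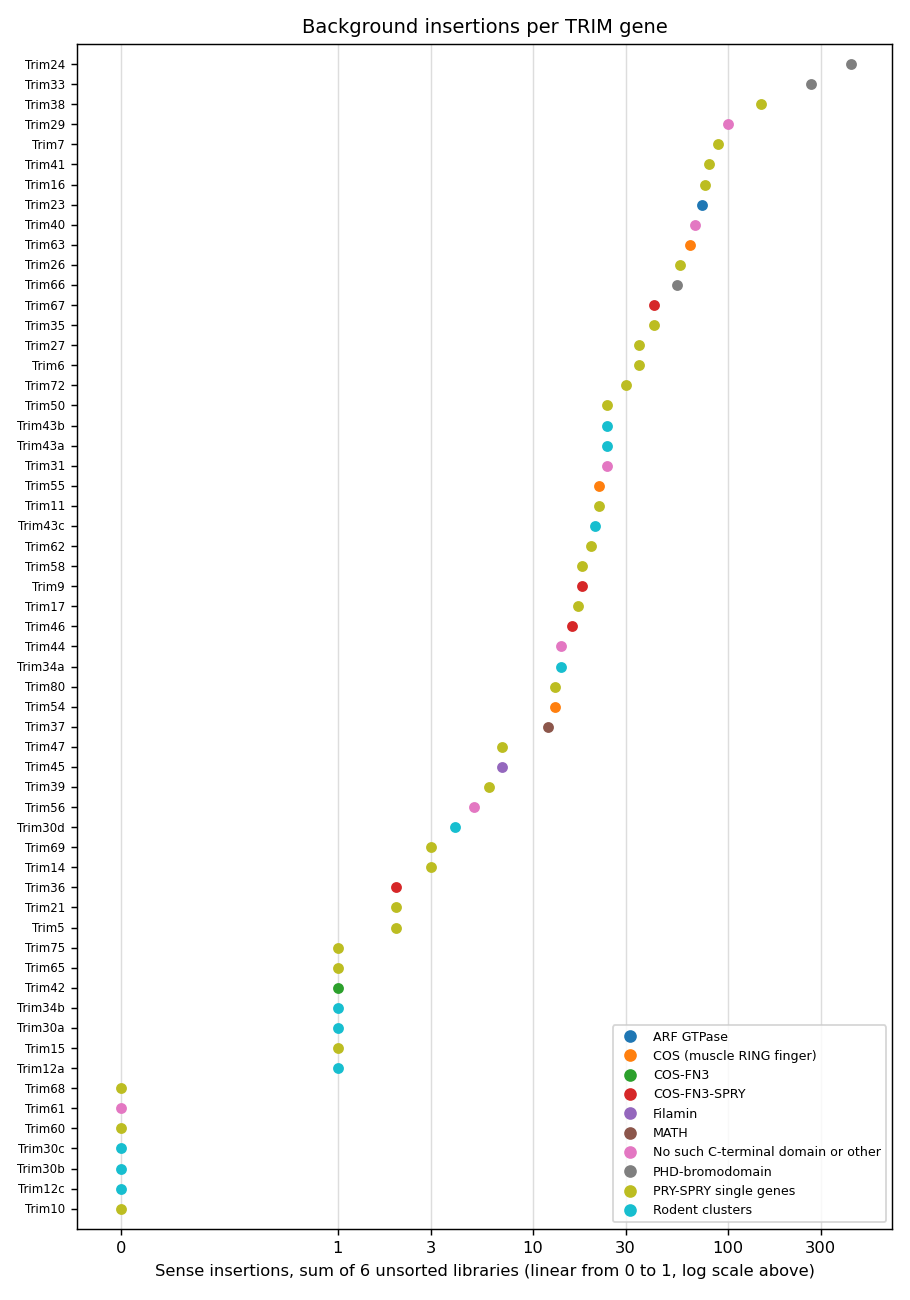
Sense insertions of each of the 58 TRIM genes summed over the 6 unsorted libraries (x axis, linear from 0 to 1 and on a log scale above), coloured by C-terminal domain. Trim24 with 428 and Trim33 with 268 insertions lie above all others, and 7 genes lie at 0.

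The number of insertions followed, in part, how much sequence lies in front of a gene's exons. The stretch of DNA from which an insertion would be assigned to a member had a median length of 44.1 kb, against 81.1 kb over 20351 genes with a splice acceptor. Across the 58 members the Spearman correlation of this length with the background count was 0.58, and across all those genes it was 0.46, both as descriptions over genes that share the same libraries. Per 10 kb of that stretch, the members had a median of 2.48 background insertions and all genes 1.98. Trim24 had 16.3 per 10 kb over 262.0 kb, more than 91.7% of all genes. Trim33 had 15.3 per 10 kb over 175.3 kb and Trim26 had 12.96 over 43.98 kb.

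Most insertions of the family were assigned to an acceptor that leaves a shortened coding sequence. Cassettes for all reading frames were mixed in the screens, and the frame of an insertion was not taken into account here. An insertion whose cassette is out of frame would not give the tagged protein. Among the 2057 background insertions of the members, 23.5% (95% Wilson interval 21.7 to 25.4) were assigned to an acceptor before the start codon, 7.34% to one that leaves over 90% of the coding sequence, and 68.9% to one that leaves less. Only 5 insertions were assigned to an acceptor with no coding sequence behind it. For Trim24 and Trim33 the coding sequence left was mostly shortened, since 414 of 428 and 267 of 268 background insertions were assigned to exon 2. Trim29 and Trim41 had all of their background insertions, 100 and 80, at an exon 2 that leaves 54.3% and 56.98% of the coding sequence. Trim38 differed from these, with 140 of 149 at an exon 2 that precedes the start codon.

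The repressor screen asks which tagged proteins lower transcription when brought to the reporter. In it, 1 member stood out: Trim24 rose in the sorted cells, and it was the only member called there. The sorted libraries held 94 and 68 insertions at Trim24, or 42.2 and 44.7 per 10000 insertions. The repressor unsorted libraries held 87 and 72, or 4.99 and 4.07 per 10000, and the 6 unsorted libraries ranged from 2.22 to 4.99. Both sorted values lay far above every unsorted one. By the one-sided Fisher exact test against the background, with p adjusted by Benjamini-Hochberg over all 2346 genes tested, the log2 odds ratio was 3.37 ± 0.13 (SE) and the adjusted p was 9.01e-92.

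In these Fisher tests a gene counted as called if its adjusted p was below 0.001 and its log2 odds ratio was 1 or more. In the repressor screen 8.18% of the genes tested were called, and among members 1 of the 3 with at least 3 sorted insertions. At an adjusted p below 0.05 the shares were 10.7% of genes and the same 1 member. The other 2, Trim23 and Trim41, had 3 sorted insertions each and log2 odds ratios of 0.15 ± 0.85 and 0.03 ± 0.85. The edgeR quasi-likelihood test, which uses the spread between the 2 sorted and 2 unsorted libraries of the screen, gave Trim24 a log2 fold change of 3.26 ± 0.23 with an adjusted p of 3.86e-10. It called 1.35% of 12888 genes as higher in sorted cells, with Trim24 the member among 36 tested. None of those 36 was called lower, where edgeR called 0.411% of genes. At an unadjusted p below 0.05 by edgeR, Trim24 was higher, with 2.46% of genes, and Trim33 was lower, with 10.1% of genes.

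The enrichment of Trim24 was seen in the repressor screen and not in the others. In the activator screen the sorted libraries held 8 and 3 insertions, or 4.60 and 2.04 per 10000, and the log2 odds ratio was -0.29 ± 0.44. In the PTGR screen they held 18 and 17, or 2.95 and 2.90 per 10000, and the log2 odds ratio was -0.52 ± 0.25. Of these sorted values, 2.04 lay just below the range of the unsorted libraries and the others lay within it. In a single edgeR fit over all 12 libraries, the sorted-over-unsorted change in the repressor screen exceeded that in the activator screen by 3.85 ± 0.51 on the log2 scale (adjusted p = 2.23e-11) and that in the PTGR screen by 3.46 ± 0.45 (adjusted p = 4.31e-12). That interaction test called 1.07% and 0.967% of 16642 genes, respectively, and Trim24 was the member called in each. Between the PTGR and activator screens it called 0.529% of genes and no member.

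**Figure D2:**
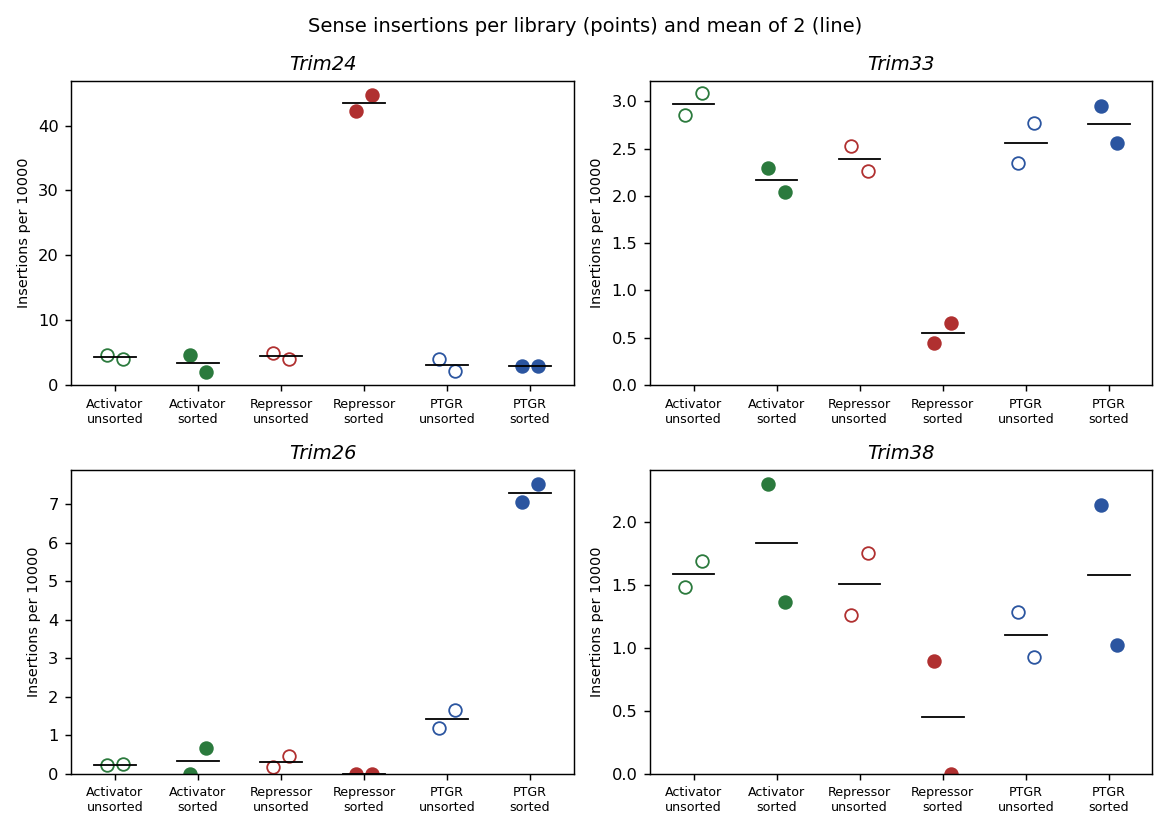
Sense insertions per 10000 insertions of each library (y axis) for Trim24, Trim33, Trim26 and Trim38, with open points for unsorted and filled points for sorted libraries and a line at the mean of the 2 replicates. Trim24 reached 42.2 and 44.7 in the repressor sorted cells, and Trim26 reached 7.05 and 7.51 in the PTGR sorted cells, while the sorted values of Trim38 lay around its unsorted values in the activator and PTGR screens and below them in the repressor screen.

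The insertions at Trim24 in the repressor sorted cells were nearly all in the orientation that can splice to the gene. The sense share was 94.9% and 95.8% in the 2 sorted libraries, with 5 and 3 insertions on the opposite strand. It lay between 48.0% and 58.9% in the 6 unsorted libraries. For the opposite strand, which serves as a control since the tag cannot join the gene, 5.61% of the 2229 genes tested in the repressor screen were called and no member was, of 4 tested. Sorted cells held 145 distinct sense positions at Trim24, of which 17 were found in both replicates and 18 in some unsorted library. With shared positions left out of both arms, the log2 odds ratio was 3.55 ± 0.14, and with each distinct position counted 1 time it was 3.38 ± 0.14.

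Within the Trim24 locus, the enrichment differed with how far upstream the cassette lay. The gene spans chr6:37870811-37966296 (GRCm38, plus strand), and 96.0% of its background insertions lay upstream of the gene, in the intergenic stretch that ends at the next protein-coding gene on the same strand, Akr1d1. Within 50 kb of the assigned exon there were 45 sorted against 66 background insertions, for a log2 odds ratio of 4.22 (95% exact interval 3.64 to 4.79). From 50 to 100 kb there were 110 against 164, for a log2 odds ratio of 4.198 (3.84 to 4.56). From 100 to 150 kb the counts were 5 against 87 and the log2 odds ratio was 0.65 (-1.01 to 1.93), and from 150 to 200 kb they were 2 against 111 with -1.02 (-4.09 to 0.86). So 198 of the 428 background insertions lay in the farther part, beyond 100 kb, where 7 of 162 sorted insertions fell and the log2 odds ratio was -0.05.

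The same split was seen in each library. The share of Trim24 insertions beyond 100 kb was 3.19% and 5.88% in the repressor sorted libraries and lay between 33.3% and 65.0% in the 6 unsorted libraries. By the exact two-sided permutation test over libraries, 2 against 6, p was 0.0714, the smallest that this design allows. The activator sorted libraries had 50.0% and 66.7% and the PTGR sorted libraries had 55.6% and 58.8%, which overlapped with the unsorted range or lay within it. The median distance did not separate as cleanly, at 65.3 and 70.2 kb in the repressor sorted libraries against 66.4 to 116.2 kb in the unsorted ones (exact permutation p = 0.143). In the PTGR sorted libraries, where Trim24 was not called, it was 117.4 and 134.2 kb, above every unsorted library (exact permutation p = 0.0714). In the activator sorted libraries it was 107.1 and 101.0 kb (exact permutation p = 0.357). A shift in median distance was thus not particular to the repressor screen. The distance of 100 kb was set after the values were seen. Across the 191 other genes called in the repressor screen, which were selected on these same sorted counts, the log2 odds ratio of the summed counts was 5.37 within and 2.39 beyond 100 kb, given as a description only.

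**Figure D3:**
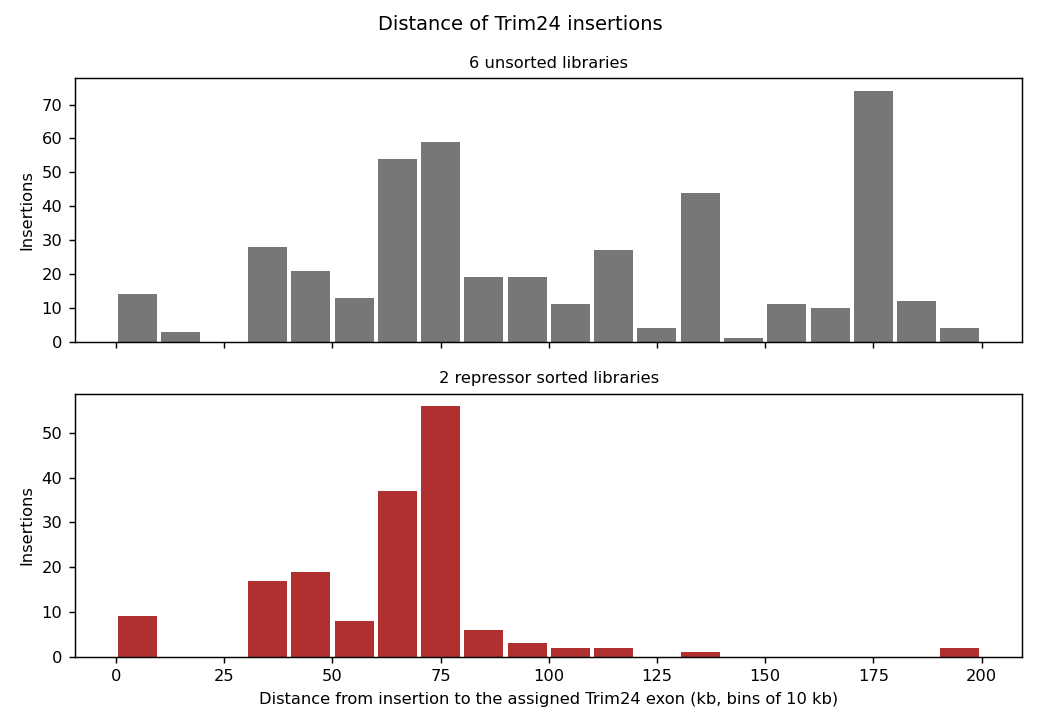
Number of Trim24 sense insertions (y axis) by distance to the assigned exon (x axis, bins of 10 kb) in the 6 unsorted libraries and in the 2 repressor sorted libraries. The unsorted libraries hold insertions out to 200 kb, with 74 between 170 and 180 kb, whereas 155 of the 162 sorted insertions lie within 100 kb.

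The other members with a PHD finger and a bromodomain were not enriched. Trim33, at chr3:103279293-103358775, had 1 and 1 insertions in the repressor sorted libraries, or 0.449 and 0.658 per 10000, below all 6 unsorted libraries at 2.26 to 3.08. With 2 sorted against 268 background insertions the log2 odds ratio was -2.30, with a 95% exact interval from -5.35 to -0.43 that covers counting error only. Ratio and interval use the whole sorted depth. Genes called in that screen held 54.9% and 54.6% of the sorted insertions, which lowers the share of every other gene. A value for Trim33 with depth from genes not called is not given. The edgeR log2 fold change was -2.12 ± 0.83 with an adjusted p of 0.272, so the lower value did not pass the test. Trim66, which pairs with heterochromatin protein 1 in germ cells, had 0 of 37470 sorted insertions, which allows up to 0.801 per 10000. This limit, which also uses the whole sorted depth, lies above its background level of 0.538. A level above the limit was not seen, and a fall was not detectable at this depth. Trim24 and Trim33 also differed in where their insertions lay: 81.7% of the 268 background insertions of Trim33 were 100 to 150 kb from the exon and 49 were closer. The part of these positions in the difference between both genes was not tested.

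Called genes took up much of the repressor sorted libraries, which left a smaller share for all others. All genes called in that screen together, Trim24 included, held 54.9% and 54.6% of the sorted insertions. The 56 members without Trim24 and Trim26, a set chosen after their values were seen, made up 0.0584% and 0.0723% of repressor sorted insertions, below the 0.143% to 0.170% of the unsorted libraries. Of the insertions outside called genes, the same 56 members made up 0.129% (95% Wilson interval 0.0757 to 0.221) and 0.159% (0.0891 to 0.285). On the same basis the unsorted libraries had 0.148% to 0.175%. With depth taken from the genes not called, the log2 odds ratio of Trim24 was 4.47 ± 0.13. Trim38, Trim7 and Trim63 had 2 sorted insertions each in this screen, all from a single replicate. Trim27, Trim34a, Trim40 and Trim67 also had 2 each, with 1 per replicate. At Trim27, Trim34a and Trim67 both replicates held the same position, at 1222, 2286 and 4554 bp from the exon. These pairs are therefore not independent insertions. The 2 insertions at Trim38 lay almost at the same distance (quartiles 34109.25 and 34109.75 bp), as did those at Trim63 (47942.5 and 47943.5 bp).

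The PTGR screen asks which tagged proteins lower a reporter mRNA or its translation when brought to it. Trim26, a PRY-SPRY ligase of the major histocompatibility region with reported roles in interferon signalling, rose in its sorted cells. It had 43 and 44 sorted insertions, or 7.05 and 7.51 per 10000. In the PTGR unsorted libraries it had 28 and 9, or 1.20 and 1.66 per 10000, and in the 4 other unsorted libraries 0.172 to 0.452 per 10000. The sorted values lay above all unsorted values, and the PTGR unsorted values lay above those of the other screens. Against the whole background the log2 odds ratio was 3.71 ± 0.25 (Fisher exact test, adjusted p = 3.99e-45), and against the unsorted libraries of its own screen it was 2.50 with an adjusted p of 3.21e-18.

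In the PTGR screen 0.666% of 9303 genes tested were called, and among members 1 of 21. At an adjusted p below 0.05 it was 1.4% of genes and the same 1 member. By edgeR the log2 fold change of Trim26 was 2.34 ± 0.40 with an adjusted p of 5.22e-06, where 0.252% of 13865 genes were called as higher. None of the 35 members tested was called lower, and 0.0216% of genes were. At an unadjusted p below 0.05 by edgeR, Trim26 and Trim43c were higher, with 1.4% of genes, and no member was lower, with 2.03% of genes. That call needed both unsorted replicates: without unsorted replicate 1 the log2 fold change was 2.19 and the adjusted p 0.985, and without unsorted replicate 2 they were 2.45 and 0.967, and in those fits edgeR called 0 genes in all, against 38 with all libraries. The Fisher call remained when either sorted replicate was left out.

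Part of the Trim26 insertions in unsorted PTGR cells were at the same positions as in sorted cells. Of the 28 in unsorted replicate 1, 15 were also listed in a sorted library of the screen, and of the 9 in unsorted replicate 2, 4 were. The positions not shared were 0.556 and 0.924 per 10000, still above the 4 unsorted libraries of the other screens. The sorted replicates had 1 position in common. With shared positions left out of both arms, 66 sorted and 37 background insertions remained and the log2 odds ratio was 4.19 ± 0.30. Its rise cannot be told apart from the effect of dropping background positions that were also sorted.

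Trim26 insertions were compact and preceded the coding sequence. The gene lies at chr17:36837134-36859398 (plus strand). In sorted cells 75 insertions were assigned to exon 3 and 12 to exon 2, so that the whole coding sequence follows the acceptor in all 87. Whether the tag was in frame was not known. In the background, 41, 15 and 1 insertions were assigned to exons 3, 2 and 5. Most sorted insertions, 83.9%, lay in introns, against 71.9% in the background, and the median distance to the exon was 6.53 kb against 7.64 kb. The sense share was 100% and 97.8% in the sorted libraries, and 76.0% over the background. In the PTGR unsorted libraries there were 28 and 9 sense against 4 and 1 reversed insertions.

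**Figure D4:**
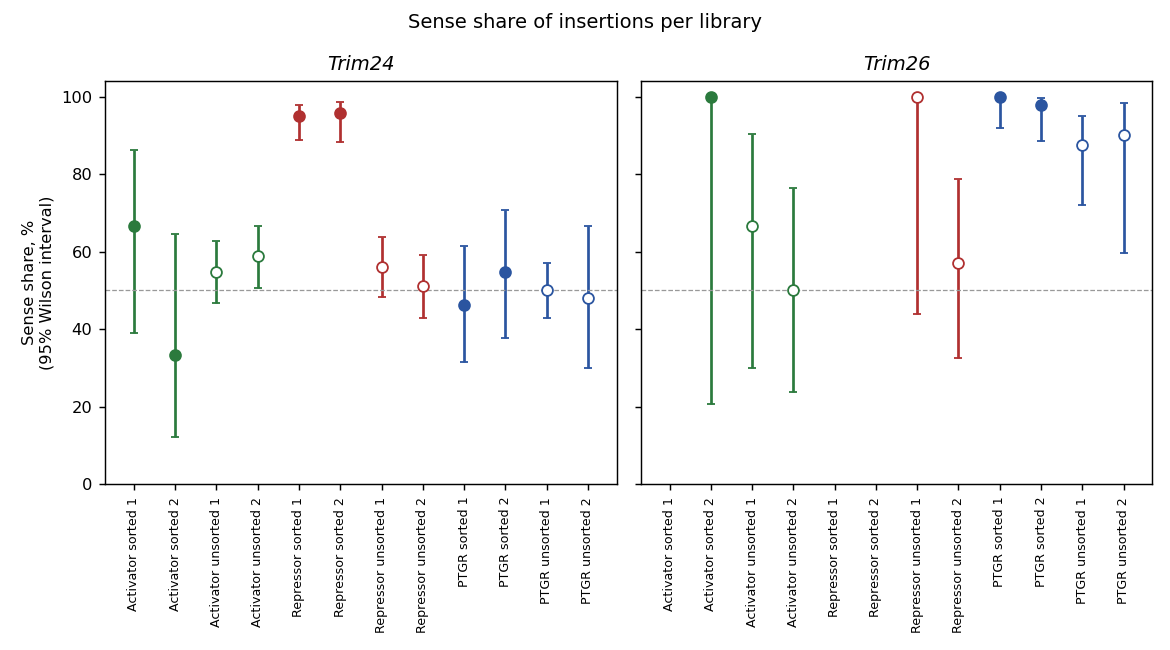
Share of insertions in the sense orientation (y axis, percent, with 95% Wilson intervals) for Trim24 and Trim26 in each of the 12 libraries, with open points for unsorted and filled points for sorted libraries and none where a library had no insertion. The repressor sorted libraries stand at 94.9% and 95.8% for Trim24, and all PTGR libraries stand at 87.5% or higher for Trim26.

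Outside the PTGR screen Trim26 was hardly seen in sorted cells. It had 0 and 1 insertions in the activator sorted libraries and 0 of 37470 in the repressor screen, where up to 0.801 per 10000 is possible with a count of 0, above its background level of 0.558. The edgeR test of the difference between the repressor and PTGR screens gave -7.09 ± 2.50 on the log2 scale with an adjusted p of 0.221, and that between PTGR and activator 2.37 ± 1.41 with an adjusted p of 0.903. A difference between screens was therefore not shown for Trim26.

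No other member was called in the PTGR screen. Of the 21 tested, Trim26 included, 14 had a log2 odds ratio above 0, against 57.5% of all genes tested, and their median was 0.12 against 0.14, all of them counted after the filter on sorted insertions. An unadjusted p below 0.05 was found for 3 members, Trim26, Trim36 and Trim41, and for 10.6% of all genes tested. Trim36, a microtubule-associated ligase, had 3 sorted and 2 background insertions (log2 odds ratio 3.68 ± 1.32, adjusted p = 0.233). Trim43c, of a mouse gene cluster, had 4 and 2 sorted insertions against 21 (1.29 ± 0.67, adjusted p = 0.477), and its edgeR log2 fold change of 2.50 ± 1.25 had an adjusted p of 0.992. Trim41 had 6 and 10 sorted insertions against 80 (0.77 ± 0.40, adjusted p = 0.428). Trim33 with 33 sorted insertions and Trim38 with 19 had log2 odds ratios of 0.07 ± 0.27 and 0.12 ± 0.35. The lowest value was that of Trim23 at -1.53 ± 0.85, and no member was called as depleted by the two-sided test, where 0.172% of genes were.

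**Figure D5:**
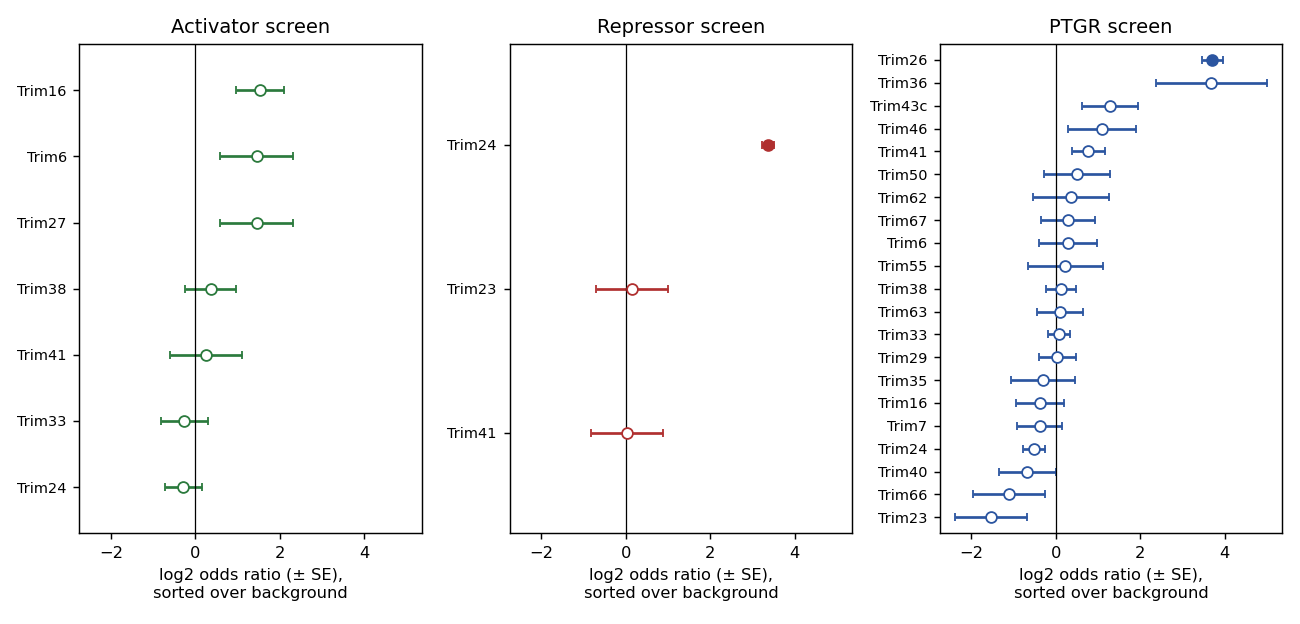
Log2 odds ratio of sorted over background insertions with its SE (x axis) for the members with at least 3 sorted insertions in each screen, filled where the gene was called. Trim24 in the repressor screen at 3.37 and Trim26 in the PTGR screen at 3.71 are the filled points.

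The activator screen asks which tagged proteins raise transcription from the minimal promoter. No member was called there, of 7 tested, where 4.64% of 2842 genes were called by the Fisher exact test. An adjusted p below 0.05 was reached by 5.56% of genes and by no member. An unadjusted p below 0.05 was reached by 9.68% of genes and by 1 member, Trim16, which takes part in the clearance of damaged lysosomes, with 6 and 1 sorted insertions against 77 in the background (log2 odds ratio 1.53 ± 0.57, adjusted p = 0.207). Its 2 sorted libraries stood at 3.45 and 0.680 per 10000, and the lower of them lay within the unsorted range of 0.509 to 1.03. All 7 of these insertions were assigned to the same acceptor before the start codon of its transcript, to which 28 of the 77 background insertions were assigned. The lower quartile and the median of their distance were 962 and 965 bp, so that some lay within a few bp of each other. Whether they came from separate integrations was not tested. Trim6 and Trim27 followed with 3 sorted and 35 background insertions each (1.45 ± 0.87), then Trim38 with 6 (0.36 ± 0.60), Trim41 with 3 (0.26 ± 0.85) and Trim33 with 7 (-0.27 ± 0.55). By edgeR no member was called of 36 tested, where 0.903% of genes were called as higher, and none as lower. At an unadjusted p below 0.05 by edgeR, Trim16 was higher, with 1.48% of genes, and Trim7 was lower, with 4.33% of genes.

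On the opposite strand no member was called in any screen. The tests covered 5, 4 and 19 members in the activator, repressor and PTGR screens, and called 3.14%, 5.61% and 0.5% of all genes tested.

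Depth limited what could be seen for most of the family. In the repressor screen a count of 0 in the 37470 sorted insertions allows 0.801 per 10000, and 5 members had a background level above this. In the activator screen the limit was 0.935 per 10000 with 4 members above it, and in the PTGR screen it was 0.251 with 17 above it. None of these members had 0 sorted insertions in the screen concerned. In all, 40, 45 and 16 members had 0 sorted insertions in the activator, repressor and PTGR screens, and 14 had 0 in each of them. For a member with 0 sorted insertions the limit bounds how far its level could have risen, while a fall was not detectable at this depth.

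By C-terminal domain, the PHD-bromodomain genes held 164 of the 186 sorted insertions of the family in the repressor screen, of which 162 were at Trim24, 2 at Trim33 and 0 at Trim66, and 751 of the 2057 in the background. The 27 single PRY-SPRY genes held 9 of those 186, and in PTGR sorted cells they held 169 of 304, of which 87 were at Trim26. The muscle RING finger genes had 2 in the repressor and 13 in the PTGR screen, and the genes of the mouse clusters 3 and 11. Trim37 and Trim45 had 0 sorted insertions in every screen. The whole family took up 0.481% and 0.520% of the repressor sorted insertions and 0.262% and 0.246% of the PTGR sorted insertions, against 0.183% to 0.218% in the unsorted libraries. In the activator sorted libraries it took up 0.213% and 0.122%, and the lower value lay below the unsorted range. Without Trim24 and Trim26 the PTGR sorted shares were 0.162% and 0.142%, against 0.143% to 0.170% in the unsorted libraries.

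Genes tied to the family by function were tested in the same way, in lists drawn up with earlier results known. Beside their counts stand the shares called over all genes tested, 4.64% in the activator, 8.18% in the repressor and 0.666% in the PTGR screen. Of 11 TRIM proteins that go under other symbols, 3 were tested in the repressor screen and 1 was called, Pml, the organizer of nuclear bodies, with 92 sorted against 595 background insertions (log2 odds ratio 2.08 ± 0.16). In the PTGR screen 9 were tested and 1 was called, Mid2, a microtubule-binding ligase, with 24 against 46 (2.16 ± 0.36). Of 11 partners of the PHD-bromodomain members, 7 were tested and 4 were called in the repressor screen, where 8.18% of all genes tested were. These were the heterochromatin protein 1 genes Cbx1 (4.52 ± 0.18), Cbx3 (5.94 ± 0.29) and Cbx5 (4.38 ± 0.18), and the retinoid receptor gene Rxra (1.49 ± 0.30). Rara and Rarg had adjusted p-values of 0.00185 and 0.0233 and were not called. None of the 12 ubiquitin-conjugating enzymes used by TRIM ligases was called in any screen, with 3, 2 and 10 tested in the activator, repressor and PTGR screens. Of 13 measured genes of innate immune signalling, 2 of 9 tested were called in the PTGR screen, where 0.666% of all genes tested were: Ikbkg, the scaffold of the IKK complex (2.48 ± 0.26), and Zc3hav1, an antiviral RNA-binding protein (1.14 ± 0.17).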

How the data were processed

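Insertion sites of 12 libraries (3 screens, sorted and unsorted cells, 2 replicates each) were analysed. Per the paper's methods and the labels, the authors trimmed reads with Trim Galore (0.6.0), aligned them to mm10 with Bowtie2, processed alignments with SAMtools (1.9), kept unique positions and assigned each to the nearest downstream exon with a splice acceptor in GENCODE protein-coding transcripts. The authors deposited, for each library, sense and reversed insertion lists with the distance to that exon, and for each screen a table of counts per gene. Those tables also hold the authors' odds ratios and adjusted p-values, which were not used.

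Each position at most 200 kb from its exon was counted 1 time per library and gene. These counts equalled the deposited counts for all 58 members in the activator and repressor sorted cells and the background, and for 48 of 58 in the PTGR sorted cells, where the deposited counts include repeated rows (largest difference 13). Depth per library was 14705 to 233799 insertions. Insertions were tested with the one-sided Fisher exact test (scipy 1.17.1) for genes with at least 3 sorted insertions, and with edgeR 4.0.16 (TMM, quasi-likelihood, at least 3 insertions over the 4 libraries of a screen, two-sided, called at an adjusted p below 0.05). All p-values were adjusted over all genes tested. The SE given with edgeR values was derived from the test, as the absolute log2 fold change over the square root of its F statistic. The Fisher test treats insertions as independent and replicates as summed. Its SE and all intervals cover counting error only, and insertions read after PCR without molecular identifiers are not independent molecules. DESeq2 1.42.0 and other settings were run as alternatives. Coding sequences came from GENCODE vM21 (GRCm38, the build of the files), in which every member insertion matched a splice acceptor within 1 bp. Positions of protein domains were not placed. The Fisher test and the edgeR fits of each screen, with and without the replicate block, were tested on simulated counts per gene. The other steps, among them the interaction test, were not tested in this way.

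Named members were those called by any test, the 5 with the most sorted insertions per screen with ties, the 10 with the most background insertions, those with 0, and the highest of each domain list. Members other than these, among them Trim66 and Trim36, were named after their values were seen. The members and gene lists were chosen with earlier results of these data known.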

Additional observations from a re-analysis of the deposited data

Results flagged for a closer look

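The response of Trim24 differed between screens by a test of the difference itself: its sorted-over-unsorted change on the log2 scale was larger in the repressor than in the activator screen by 3.85 ± 0.51 (SE; edgeR interaction test over 12 libraries, adjusted p = 2.23e-11) and larger than in the PTGR screen by 3.46 ± 0.45 (adjusted p = 4.31e-12). Both replicates of the repressor sorted cells showed it.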

How the results depend on the processing

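Trim24 in the repressor screen stayed called under every alternative run, Fisher and edgeR, with its log2 odds ratio between 3.26 and 4.47. Its edgeR log2 fold change lay between 3.14 and 3.59, and in some of these fits its adjusted p was higher than in the main fit. Trim26 in the PTGR screen stayed called by every Fisher alternative, with a log2 odds ratio between 2.50 and 4.19. By edgeR the count of members called in the PTGR screen ranged from 0 to 1 when 1 library was left out. The call of Trim26 was lost without unsorted replicate 1 (adjusted p = 0.985) or 2 (adjusted p = 0.967), with log2 fold changes of 2.19 and 2.45. In those fits the prior degrees of freedom of edgeR were 0.594 and 0.957, while they were infinite with all libraries. The correlation of same-numbered libraries' deviations from their group means, over 3475 genes, was 0.055, -0.0021 and 0.234 in the activator, repressor and PTGR screens, so not above 0.1 in each. Sorted libraries shared more positions with the same-numbered unsorted library than with the other one in the activator (4.96% against 2.25% and 19.5% against 1.46%) and PTGR screens (18.2% against 0.342% and 6.76% against 1.79%), but in the repressor screen for replicate 2 alone. The labels do not say what a replicate number marks. With the replicate block the members called were unchanged, at 0, 1 and 1 in those screens, and the adjusted p was 5.09e-26 for Trim24 and 3.31e-09 for Trim26. The interaction test with the replicate block also kept its calls of Trim24. Of the 58 members, 41 had at least 3 background insertions.

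Among members that were not called, the sign held under every alternative that gave a value for Trim6 (0.73 to 2.04) and Trim27 (1.07 to 2.33) in the activator screen and for Trim24 (-0.65 to -0.33) and Trim41 (0.33 to 1.13) in the PTGR screen, and turned for others. With a sorted replicate left out, log2 odds ratios in the activator screen ranged from -0.15 to 2.20 for Trim16, from -1.04 to 0.14 for Trim24, from -0.10 to 0.66 for Trim38 and from -0.20 to 0.55 for Trim41. In the repressor screen they ranged from -0.69 to 0.86 for Trim23 and from -0.25 to 0.20 for Trim41, and in the PTGR screen from -0.034 to 0.17 for Trim33 and from -0.51 to 0.55 for Trim38. With depth from genes not called, the activator values were 0.30 for Trim24 and 0.32 for Trim33. Without positions shared with unsorted libraries, Trim41 was at -0.063 in the activator and Trim23 at -0.13 in the repressor screen. Within 50 kb, the repressor values were -0.13 for Trim23 and -0.25 for Trim41, and for Trim41 they were -0.0092 without PTGR unsorted replicate 2 in the background and -0.38 with distinct positions. These settings on shared and distinct positions and on depth from genes not called were added after seeing the data. The cause was not tested. Sorted libraries of the activator and repressor screens held 32102 and 37470 insertions, so most members had too few for a test.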
